A study of Mus musculus with 2 samples.

Results

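The interferon response genes described here were 10 genes, Isg15, Ifit1, Ifit3, Irf1, Irf7, Psmb8, Psmb9, Tap1, Ifi27l2a and Ifitm3, of the 56953 genes listed in both libraries. They were taken by gene symbol, and their levels were described across the cell groups formed by droplet barcodes with at least 1000 UMIs. A UMI, or unique molecular identifier, stands for 1 captured RNA molecule. The tissue was labelled olfactory epithelium and came from 2 male wildtype C57BL/6J mice, called mouse 1 and mouse 2, with 1 droplet single-cell RNA library each. Neither mouse carried a named allele or received a named treatment, and the labels gave no age. Both belonged to 1 group, so that every comparison here was between cell groups within the mice. The 2 mice were the replicates. Each p-value rested on how far differences between cell groups disagreed between these 2 animals, estimated over 13 groups together.

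Interferons are secreted proteins that warn cells of infection. Type I interferons act through receptors and the JAK kinases on genes that carry the interferon-stimulated response element (ISRE), whereas gamma interferon acts through its own receptor on genes that carry the gamma-activated site (GAS). Isg15 encodes a ubiquitin-like protein that is joined to other proteins, Ifit1 and Ifit3 encode proteins that act on viral RNA, and Ifitm3 and Ifi27l2a encode small membrane proteins, of which IFITM3 hinders the entry of viruses. Irf1 and Irf7 are transcription factors of the pathway. Psmb8 and Psmb9 encode catalytic subunits of the immunoproteasome, and Tap1 encodes a chain of the transporter that carries its peptides to MHC class I molecules.

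Promoter sequences are shown because they hold the elements through which interferons act on these genes. RefSeq promoter windows of build GRCm38.p6, from 250 bases before to 50 bases after a gene's start, were found for 9 members, and Ifi27l2a was not among them. An ISRE core, searched as GAAA, 2 bases of any kind and GAAA on both strands, was present in 4 members, against 3.44% of all 32851 windows. A GAS, searched as TTCNNNGAA on both strands, was present in 3 members, against 8.30% of all windows. Capitals mark the matches, and each sequence is written 5′ to 3′ on the gene's strand. The 3 ISRE cores of Isg15 overlap one another, and in Ifitm3 the ISRE core shown lies beside a GAS.
Isg15, chr4:156200860-156200911, minus strand: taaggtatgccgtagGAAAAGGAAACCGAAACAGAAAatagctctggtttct
Ifit1, chr19:34640770-34640828, plus strand: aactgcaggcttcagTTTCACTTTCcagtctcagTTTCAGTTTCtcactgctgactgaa
Ifit3, chr19:34583358-34583431, plus strand: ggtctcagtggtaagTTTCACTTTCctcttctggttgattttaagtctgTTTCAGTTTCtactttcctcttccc
Ifitm3, chr7:141010723-141010752, minus strand: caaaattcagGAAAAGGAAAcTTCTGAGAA
Irf1, chr11:53769909-53769947, plus strand: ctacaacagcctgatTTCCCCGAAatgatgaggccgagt
Psmb8, chr17:34198083-34198121, plus strand: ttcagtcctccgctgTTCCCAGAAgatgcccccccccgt

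The windows of Irf7, Psmb9 and Tap1 held neither string of letters. The starts of Psmb9 and Tap1 lay 226 bases apart on opposite strands of chromosome 17, at 34187330 and 34187556. A match is a run of letters and not a measured binding site.

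The libraries held 95844802 UMIs in mouse 1 and 86049057 UMIs in mouse 2, and 12537 and 8930 cells were kept. Clustering on genes that left out the members gave 18 cell groups, 14 of them with at least 20 cells in both mice, with median depths from 1565 to 10817 UMIs per cell. Fibroblast-like cells, the largest group, numbered 5459 and 4505 in mouse 1 and mouse 2 and served as the common comparator. No cluster carried olfactory markers. The 5 olfactory neuron markers together reached 3.30 and 4.06 CPM (UMI counts scaled to a common total per group, the usual CPM unit) over all cells of mouse 1 and mouse 2, 1 of them was at 0 in mouse 1, and sustentacular markers reached 1.21 and 2.08 CPM. The libraries therefore went against their tissue label, and the groups are named by their own markers. Between the 2 libraries 515 barcodes of at least 1000 UMIs were shared, and of the 387 kept as cells in both mice 56.6% fell in the same group, against 36.3% from the group sizes alone. Results without those barcodes are given beside those with them where a call was lost or gained.

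Across 12 cell classes set against fibroblast-like cells, a member was called higher or lower when its adjusted p was under 0.05 in edgeR's quasi-likelihood test with Benjamini-Hochberg adjustment over 6287 genes that played no part in the clustering. Isg15 was higher in 7 classes and lower in none. Psmb8 and Psmb9 were each higher in 6 classes and lower in 1, Irf7 and Tap1 were each higher in 4, and Ifit1 was higher in 2 and lower in 2. The membrane protein genes went mainly the other way, with Ifi27l2a higher in 1 class and lower in 6, and Ifitm3 higher in 1 and lower in 4. Irf1 was called in 1 class and Ifit3 in none. With the 2 further comparisons between neighbouring classes, 51 of 140 results were called, and in all 51 both mice lay on the same side. The calls rest on the same 2 mice, so this agreement is not separate support for them.

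**Figure D1:**
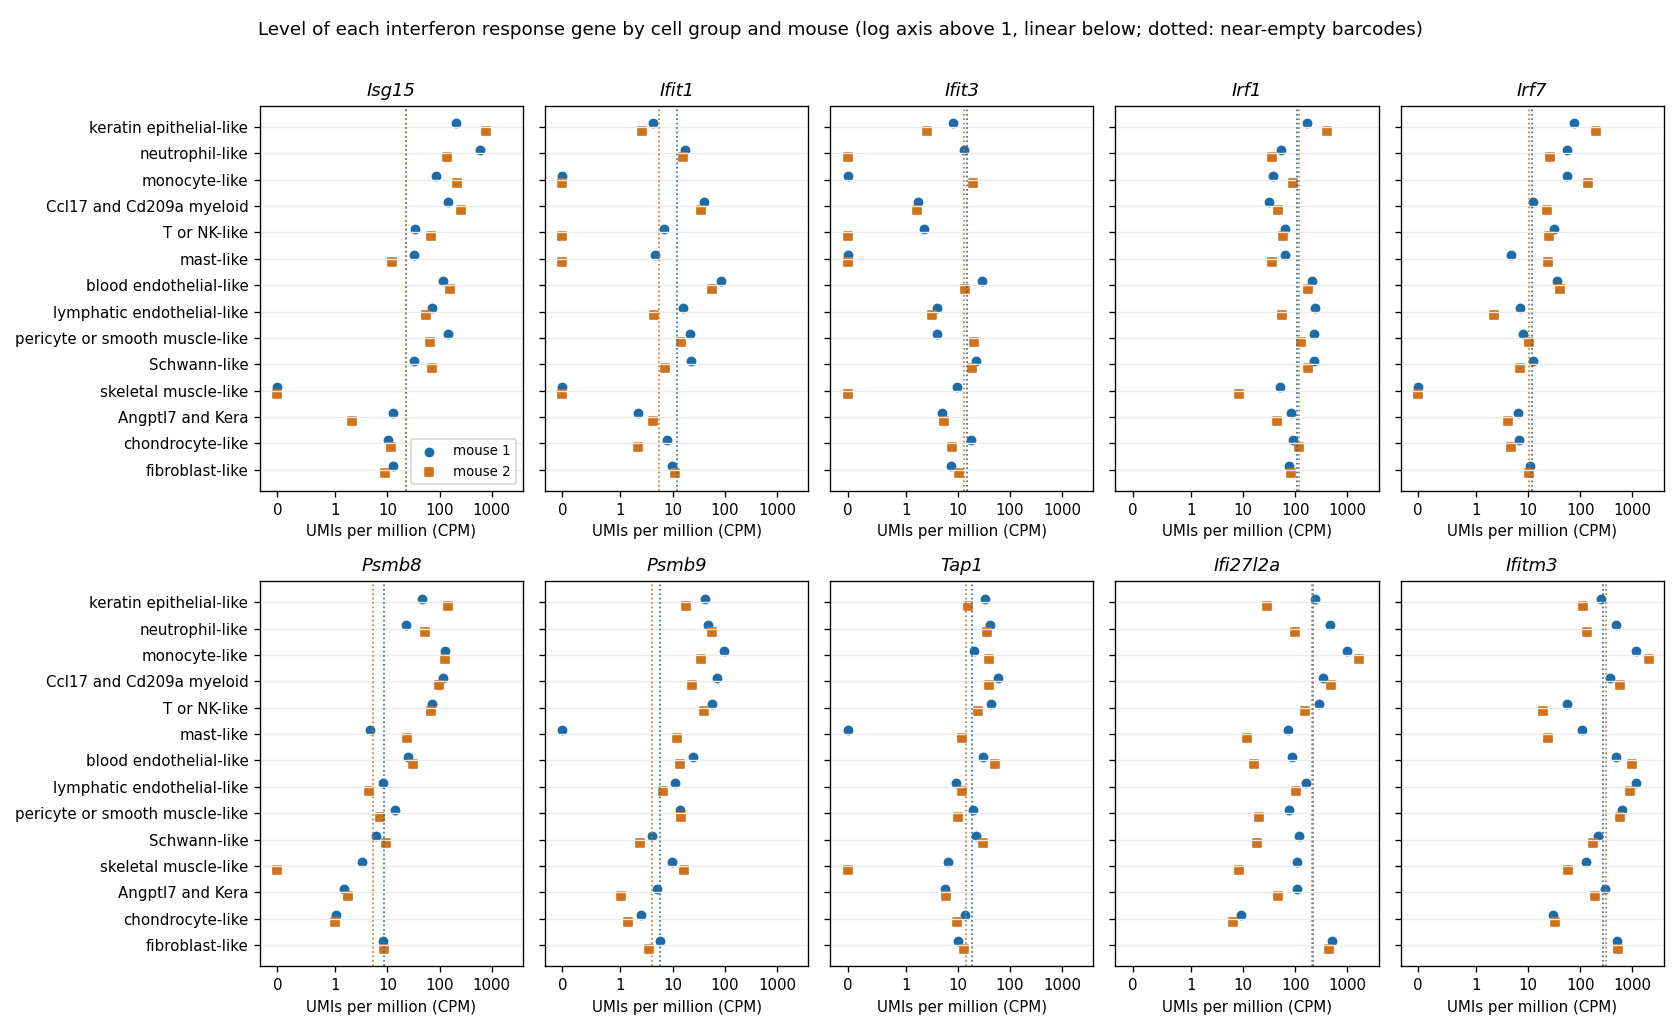
Level of each gene in CPM (horizontal axis, logarithmic above 1 and linear below) in 14 cell groups (vertical axis), with a circle for mouse 1 and a square for mouse 2; dotted lines give the level in near-empty barcodes of each mouse. Isg15, Irf7, Psmb8 and Psmb9 lie far to the right of fibroblast-like cells in several immune classes and in keratin epithelial-like cells, whereas Ifi27l2a and Ifitm3 lie to the left of fibroblast-like cells in most classes.

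The classes differed in how many members were called higher and how many lower. In blood endothelial-like cells 6 members were higher and 1 lower, where 7.38% of all genes tested were called higher and 3.90% lower, and the median log2 fold was 1.54 over the members and -0.08 over all genes. Keratin epithelial-like cells had 5 higher and none lower, with 11.7% of all genes called higher and 7.05% lower, and medians of 1.88 over the members and -0.03 over all genes. Monocyte-like cells had 6 higher and 1 lower, with 13.8% of all genes called higher and 15.4% lower, and medians of 1.87 and -0.29. In each of these calls both mice lay on the same side of fibroblast-like cells. Neutrophil-like cells had 5 higher and none lower, with 18.1% of all genes called higher and 14.2% lower, and medians of 1.93 and -0.24. The Ccl17 and Cd209a myeloid cells, named by leading genes of their main cluster, had 5 higher and none lower. There 12.6% of all genes were called higher and 10.4% lower, with medians of 1.51 and 0.06. That cluster, of 237 cells, scored highest on the macrophage markers (3.48), and the other 9 cells were led by Cxcl1 and C1q genes. In T or NK-like cells 3 were higher and 1 lower, with 11.5% of all genes called higher and 13.2% lower, and medians of 0.49 and -0.01.

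Chondrocyte-like cells stood at the low end, with no member higher and 5 lower, where 9.80% of all genes tested were called higher and 10.8% lower, and with medians of -0.98 over the members and -0.11 over all genes. Mast-like cells had 2 lower and none higher, with 8.13% of all genes called higher and 6.52% lower, and medians of -1.33 and -0.35. Their members' median was -0.73 when a gene without UMIs was set to the limit that 3 UMIs allow. Skeletal muscle-like cells also had 2 lower and none higher, with 8.03% of all genes called higher and 4.28% lower, and medians of -1.97 and -0.44, or -0.86 with the 3 members without UMIs at that limit. Among the other vessel and nerve classes, lymphatic endothelial-like cells had 1 member higher, with 7.36% of all genes called higher and 8.43% lower. Pericyte or smooth muscle-like cells had 1 higher and 1 lower, with 6.09% and 3.98% of all genes, and Schwann-like cells had 1 lower, with 6.65% of all genes called higher and 4.96% lower. A count of 1 in 10 members lies near these shares. Without the mouse as a block, the lower calls in skeletal muscle-like and Schwann-like cells were lost.

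Scaling by library size alone moved the balance of all genes in 4 classes by more than 10 percentage points. The median over all genes went to -1.01 in neutrophil-like cells, with 791 genes higher and 1794 lower in place of 1139 and 895. In keratin epithelial-like cells it went to -0.43, with 552 higher and 705 lower in place of 738 and 443. The Ccl17 and Cd209a myeloid cells went to -0.20, with 685 higher and 865 lower in place of 794 and 652, and skeletal muscle-like cells to -0.60, with 473 higher and 417 lower in place of 505 and 269. The medians moved by over 0.1 also in monocyte-like cells (to -0.52), pericyte or smooth muscle-like cells (to 0.19), blood endothelial-like cells (to 0.10), mast-like cells (to -0.22), Schwann-like cells (to 0.06) and chondrocyte-like cells (to -0.21). The members' counts stayed at 5 higher in the neutrophil-like and Ccl17 and Cd209a myeloid cells and at 2 lower in skeletal muscle-like cells, and became 5 higher and 1 lower in keratin epithelial-like cells.

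**Figure D2:**
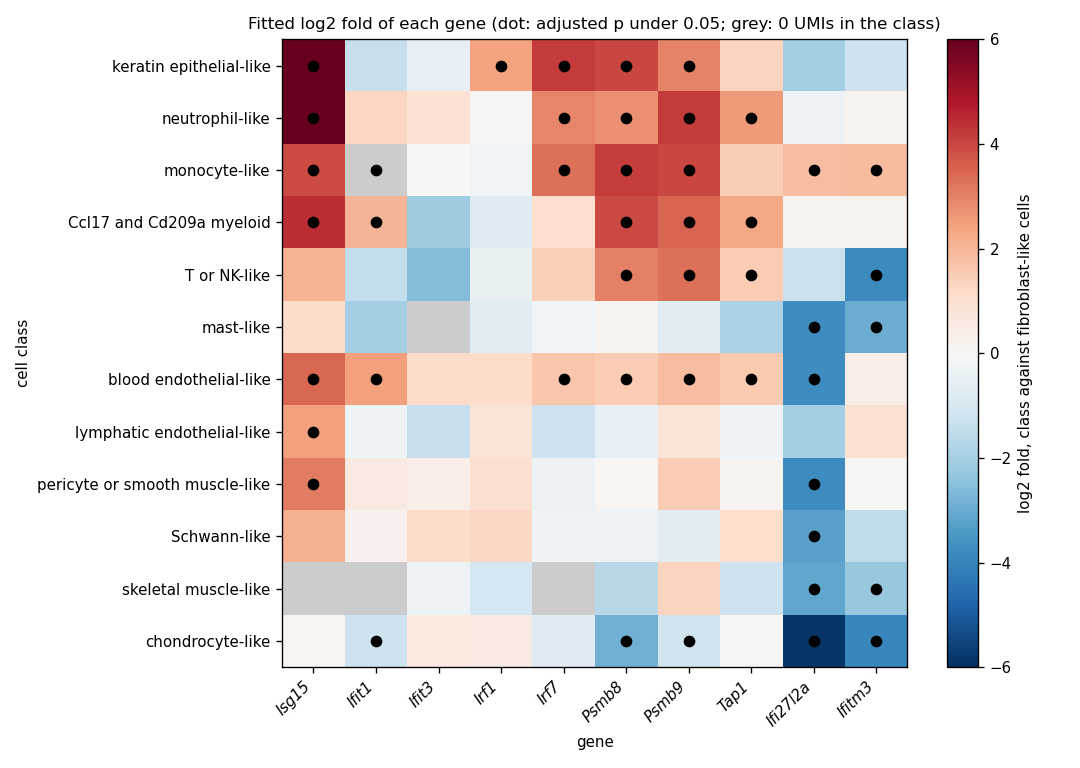
Fitted log2 fold of each member (columns) in 12 cell classes (rows) against fibroblast-like cells, red where the class was higher and blue where it was lower; a dot marks an adjusted p under 0.05 and grey marks a class with 0 UMIs of that gene. Isg15 is red with a dot in 7 rows, and Ifi27l2a is blue with a dot in 6.

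Isg15, the ubiquitin-like modifier, was the member called higher in the most classes. It was at 602 CPM (318 UMIs) in mouse 1 and 140 CPM (27 UMIs) in mouse 2 in neutrophil-like cells, against 12.9 and 9.05 CPM in fibroblast-like cells. Keratin epithelial-like cells held 211 CPM in mouse 1 and 793 CPM in mouse 2. The mice thus differed in which of these classes was highest, and both classes lay far above fibroblast-like cells in each mouse. The log2 fold was 6.16 ± 0.86 (SE; adjusted p = 1.56e-06, edgeR) in neutrophil-like cells and 5.98 ± 0.85 (adjusted p = 4.43e-06, edgeR) in keratin epithelial-like cells, and 5.15 and 5.45 with library size alone. In keratin epithelial-like cells the transcripts sat in few cells. Only 20% of these cells in mouse 1 and 30.6% in mouse 2 had an Isg15 UMI, a single cell held up to 16 and 104 UMIs, and the 10% of cells with the most held 90.2% and 83.4% of the class's Isg15 UMIs.

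Isg15 was called higher in 5 further classes. Ccl17 and Cd209a myeloid cells were at 144 and 260 CPM in mouse 1 and mouse 2, with a log2 fold of 4.44 ± 0.80 (adjusted p = 9.23e-05, edgeR). Monocyte-like cells were at 84.4 and 215 CPM, and 35.4% and 52.0% of them had an Isg15 UMI, against 3.32% and 2.24% of fibroblast-like cells. Blood endothelial-like cells were at 119 and 158 CPM, pericyte or smooth muscle-like cells at 144 and 64.3 CPM, and lymphatic endothelial-like cells at 71.6 and 55.6 CPM. All 5 of these classes lay above fibroblast-like cells in both mice, and the call in lymphatic endothelial-like cells was lost among cells of at least 2000 UMIs (adjusted p = 0.0553, edgeR). Schwann-like cells, at 32.8 and 72.5 CPM, and T or NK-like cells, at 34.1 and 68.9 CPM, also lay above in both mice without passing the test (adjusted p = 0.0782 and 0.0604, edgeR). Without shared barcodes both passed (adjusted p = 0.0170 and 0.0308, edgeR). Chondrocyte-like cells, at 10.4 and 11.9 CPM, lay beside fibroblast-like cells, and skeletal muscle-like cells held no Isg15 UMI. Near-empty barcodes, those with at most 50 UMIs, held Isg15 at 23.2 and 22.6 CPM, above its level in fibroblast-like and chondrocyte-like cells.

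Ifit1, which binds viral RNA that lacks the host's cap marks, was higher in blood vessel cells and in 1 myeloid class. Blood endothelial-like cells were at 83.4 CPM in mouse 1 and 58.3 CPM in mouse 2, against 9.61 and 11.3 CPM in fibroblast-like cells. They were the highest of the 14 groups in both mice, and 13.8% and 9.48% of them had an Ifit1 UMI, against 1.85% and 2.15% of fibroblast-like cells. The log2 fold was 2.45 ± 0.47 (adjusted p = 0.000505, edgeR). Ccl17 and Cd209a myeloid cells followed, at 39.9 and 35.0 CPM, with a log2 fold of 2.02 ± 0.49 (adjusted p = 0.00282, edgeR). Keratin epithelial-like cells, which had the most Isg15 in mouse 2, were at 4.13 and 2.58 CPM of Ifit1. Chondrocyte-like cells were lower than fibroblast-like cells, at 7.74 and 2.14 CPM (log2 fold -1.23 ± 0.42, adjusted p = 0.0371, edgeR). That call was lost under 8 of the settings tried, with adjusted p of 0.0901 in DESeq2 and 0.240 without the mouse block.

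Monocyte-like cells held no Ifit1 UMI in either mouse, where 3 UMIs over the group would have been 5.51 CPM. Their level was at least 1.90-fold lower than in fibroblast-like cells (adjusted p = 0.0392, edgeR) and at least 6.78-fold lower than in Ccl17 and Cd209a myeloid cells (adjusted p = 0.0121, edgeR). The call against fibroblast-like cells was lost without the mouse block, among cells of at least 2000 UMIs, with doublets kept and at resolution 0.5. In the same monocyte-like cells Isg15 and Irf7 were called higher than in fibroblast-like cells.

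Ifit3, which binds IFIT1 and stabilises it, passed the test in none of the 14 comparisons with the settings used throughout. Its levels were 28.8 and 13.9 CPM in blood endothelial-like cells, 22.5 and 18.7 CPM in Schwann-like cells and 18.0 and 7.88 CPM in chondrocyte-like cells, against 7.29 and 10.4 CPM in fibroblast-like cells. Near-empty barcodes held 15.3 and 13.1 CPM, so that most groups lay at or under that level. A log2 fold of 1.13 ± 0.66 in blood endothelial-like cells gave an adjusted p of 0.358 in edgeR. Its neighbour Ifit3b, near-identical in sequence, held 639 UMIs beside 1469 for Ifit3, and the counting could split reads between them.

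Of the transcription factors, Irf7, which amplifies the type I response, was higher in 4 classes. Keratin epithelial-like cells were at 74.4 and 204 CPM in mouse 1 and mouse 2, against 10.9 and 10.4 CPM in fibroblast-like cells, a log2 fold of 4.19 ± 0.56 (adjusted p = 1.53e-06, edgeR). Monocyte-like cells were at 55.3 and 140 CPM (3.32 ± 0.58, adjusted p = 5.08e-05, edgeR), and neutrophil-like cells at 54.9 and 26.0 CPM (2.95 ± 0.60, adjusted p = 0.000308, edgeR; 2.08 with library size alone). Blood endothelial-like cells were at 35.5 and 41.6 CPM (1.66 ± 0.55, adjusted p = 0.0494, edgeR), a call lost with DESeq2 (adjusted p = 0.112) and without the mouse block (adjusted p = 0.0990). Every one of these classes lay above fibroblast-like cells in both mice. Fibroblast-like cells themselves lay near the near-empty barcodes, at 12.1 and 10.6 CPM. T or NK-like cells at 31.8 and 24.6 CPM (1.42, adjusted p = 0.117, edgeR) did not pass the test.

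Irf1, the factor induced by gamma interferon and also by other stimuli, was called in 1 class. Keratin epithelial-like cells were at 169 and 418 CPM, against 77.1 and 82.2 CPM in fibroblast-like cells, with a log2 fold of 2.43 ± 0.62 (adjusted p = 0.00533, edgeR; 1.93 with library size alone). Schwann-like cells at 236 and 180 CPM and blood endothelial-like cells at 209 and 180 CPM lay above fibroblast-like cells in both mice, yet their log2 folds of 1.26 and 1.10 did not pass the test (adjusted p = 0.216 and 0.309, edgeR). Lymphatic endothelial-like cells differed between the mice, at 240 and 55.6 CPM. Near-empty barcodes held 108 and 118 CPM, above the level in fibroblast-like cells. Irf1 shares a locus with Gm17334, which held 1596 UMIs beside its 13014.

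The immunoproteasome genes were highest in immune classes and in keratin epithelial-like cells. Psmb8, the immune counterpart of Psmb5, was at 128 and 125 CPM in monocyte-like cells of mouse 1 and mouse 2, against 8.35 and 8.44 CPM in fibroblast-like cells. It was detected in 39.6% and 64.0% of monocyte-like cells and in 2.62% and 3.00% of fibroblast-like cells, and the log2 fold was 4.14 ± 0.50 (adjusted p = 1.29e-07, edgeR). Ccl17 and Cd209a myeloid cells reached 118 and 98.4 CPM, T or NK-like cells 72.6 and 68.9 CPM, keratin epithelial-like cells 45.5 and 147 CPM and neutrophil-like cells 22.7 and 51.9 CPM (log2 fold 2.72, or 1.99 with library size alone). Blood endothelial-like cells were at 24.9 and 30.5 CPM (1.52 ± 0.50, adjusted p = 0.0460, edgeR), a call lost with no filter on low counts (adjusted p = 0.0761, edgeR) and without the mouse block (adjusted p = 0.0850, edgeR). All 6 classes passed the test with the settings used throughout and lay above fibroblast-like cells in both mice. Chondrocyte-like cells were at 1.04 and 0.999 CPM, below every fibroblast-like value, with a log2 fold of -2.90 ± 0.46 (adjusted p = 1.64e-05, edgeR).

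Psmb9, the immune counterpart of Psmb6, gave the same 6 classes as higher. Neutrophil-like cells were at 47.3 and 57.1 CPM, against 5.86 and 3.58 CPM in fibroblast-like cells (log2 fold 4.18 ± 0.48, adjusted p = 3.89e-08, edgeR; 3.39 with library size alone). Monocyte-like cells were at 96.0 and 35.0 CPM (4.02 ± 0.47, adjusted p = 8.38e-08, edgeR), T or NK-like cells at 56.8 and 39.4 CPM, and blood endothelial-like cells at 24.9 and 13.9 CPM. Chondrocyte-like cells were again lower, at 2.50 and 1.39 CPM (-1.19 ± 0.39, adjusted p = 0.0255, edgeR), a call lost with no filter on low counts (adjusted p = 0.127, edgeR) and without the mouse block (adjusted p = 0.117, edgeR). Each called class lay on its own side of fibroblast-like cells in both mice.

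Tap1, whose start faces that of Psmb9, was higher in 4 of those 6 classes. Ccl17 and Cd209a myeloid cells were at 59.0 and 40.0 CPM, against 10.2 and 13.4 CPM in fibroblast-like cells (2.30 ± 0.46, adjusted p = 0.000316, edgeR). Neutrophil-like cells were at 41.6 and 36.4 CPM (2.55 ± 0.52, adjusted p = 0.000281, edgeR; 1.73 with library size alone), blood endothelial-like cells at 30.7 and 52.7 CPM and T or NK-like cells at 43.1 and 24.6 CPM. None of these overlapped with fibroblast-like cells, which is no separate support for calls made on the same 2 mice. The call in T or NK-like cells was lost with no filter on low counts, among cells of at least 2000 UMIs and with a mitochondrial limit of 10% (adjusted p = 0.103 to 0.266, edgeR). Monocyte-like cells at 20.4 and 40.0 CPM and keratin epithelial-like cells at 33.1 and 15.5 CPM did not pass the test (adjusted p = 0.0603 and 0.132, edgeR).

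Each immunoproteasome subunit takes the place of a constitutive one, so the share of UMIs that fell on the immune member of a pair was computed for each class. The share compares classes and not the amounts of the subunits, because the counts were not scaled to transcript length. It also leaves out Gm20496, a feature that overlaps Psmb8 and held 832 UMIs beside 839 for Psmb8. For Psmb8 with Psmb5 it was 64.8% (95% exact interval 54.8 to 73.8) and 55.1% (45.2 to 64.8) in Ccl17 and Cd209a myeloid cells of mouse 1 and mouse 2. T or NK-like cells were at 50% and 48.3%, and blood endothelial-like cells at 47.3% and 26.8%. Chondrocyte-like cells were at 2.64% (1.90 to 3.57) and 1.63% (1.14 to 2.25), against 17.3% (14.9 to 20) and 11.8% (10.1 to 13.6) in fibroblast-like cells. The intervals cover counting error only. Psmb5 itself was at 38.5 and 60.3 CPM in chondrocyte-like cells and 39.8 and 63.3 CPM in fibroblast-like cells, close to each other in each mouse.

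The second pair, Psmb9 with Psmb6, gave 78.1% and 39.3% in neutrophil-like cells and 28.0% and 11.9% in blood endothelial-like cells, against 5.99% and 3.30% in fibroblast-like cells. Psmb10 with Psmb7 was highest in monocyte-like cells in mouse 2, at 53.8% and 70.6% in the 2 mice, against 18.2% and 21.6% in fibroblast-like cells. Psmb10, the remaining immune subunit, was at 61.1 and 120 CPM in monocyte-like cells and 7.87 and 10.1 CPM in fibroblast-like cells (log2 fold 3.48).

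Fibroblast-like cells lay above most classes for both membrane protein genes. Ifitm3 was at 1184 and 2038 CPM in monocyte-like cells, against 506 and 523 CPM in fibroblast-like cells, and was detected in 95.8% and 100% of monocyte-like cells and in 63.7% and 67.5% of fibroblast-like cells. The log2 fold was 1.89 ± 0.64 (adjusted p = 0.0253, edgeR), and the call was lost with no filter on low counts and with a mitochondrial limit of 10%. Lymphatic endothelial-like cells, at 1153 and 904 CPM, also lay above fibroblast-like cells in both mice without passing the test (0.91, adjusted p = 0.431, edgeR). Chondrocyte-like cells were at 29.9 and 33.2 CPM (-3.92 ± 0.69, adjusted p = 6.3e-05, edgeR), T or NK-like cells at 54.5 and 19.7 CPM (-3.80 ± 0.74, adjusted p = 0.000223, edgeR) and mast-like cells at 106 and 24.1 CPM (-3.00 ± 0.73, adjusted p = 0.00418, edgeR). These 3 classes lay far below fibroblast-like cells in both mice, and also below the near-empty barcodes at 275 and 312 CPM. Schwann-like cells did not pass the test (log2 fold -1.53, adjusted p = 0.138, edgeR), but were called lower without shared barcodes (adjusted p = 0.0285, edgeR). Skeletal muscle-like cells at 132 and 57.7 CPM were called lower (-2.27 ± 0.69, adjusted p = 0.0271, edgeR), but the call was lost without the mouse block, and among cells of at least 2000 UMIs their log2 fold was -0.28 (adjusted p = 0.742, edgeR).

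Ifi27l2a was at 969 and 1688 CPM in monocyte-like cells, against 507 and 445 CPM in fibroblast-like cells, and 85.4% and 84.0% of monocyte-like cells had a UMI, against 41.4% and 41.5% of fibroblast-like cells. The log2 fold of 1.84 ± 0.71 (adjusted p = 0.0475, edgeR) lost its call under 8 of the settings tried, among them DESeq2, library size alone and the removal of shared barcodes (adjusted p = 0.0575, edgeR). Chondrocyte-like cells had the lowest level in both mice, at 9.27 and 6.46 CPM (-5.88 ± 0.84, adjusted p = 3.28e-06, edgeR). Blood endothelial-like cells, which had more of 6 other members than fibroblast-like cells, held less Ifi27l2a, at 86.3 and 16.7 CPM (-3.70 ± 0.79, adjusted p = 0.00137, edgeR). Pericyte or smooth muscle-like, mast-like, Schwann-like and skeletal muscle-like cells were also lower, at 73.6 to 121 CPM in mouse 1 and 8.24 to 20.5 CPM in mouse 2. Without the mouse block the Ifi27l2a calls in blood endothelial-like, mast-like, Schwann-like and skeletal muscle-like cells were lost (adjusted p = 0.0518 to 0.122, edgeR). Keratin epithelial-like and lymphatic endothelial-like cells did not pass the test (log2 fold -2.02 in each, adjusted p = 0.0568 and 0.0516, edgeR). Both were called lower without shared barcodes (adjusted p = 0.0490 and 0.0232, edgeR). Every called class had its higher value in mouse 1, apart from monocyte-like cells. Near-empty barcodes held 221 and 215 CPM.

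Pairs of features that overlap could not be told apart by these counts. Psmb8 held 839 UMIs and Gm20496 832, with 47.0% to 55.3% of their sum under Psmb8 in 7 groups of at least 50 UMIs. Ifitm3 held 28897 UMIs and the unnamed feature ENSMUSG00000121233 28677, with 47.6% to 54.5% under Ifitm3 in 14 groups. The levels of Psmb8 and Ifitm3 given here are therefore near 50% of each pair's sum. Adding the partners to the members changed none of the 51 calls.

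The endothelial classes were also set against each other, which asks whether vessel types of the same tissue differed. Lymphatic endothelial-like cells were lower than blood endothelial-like cells in 4 members and higher in none, where 5.30% of all genes tested were called lower and 2.53% higher, and the median log2 fold was -1.41 over the members and 0.09 over all genes. The 4 were Ifit1, Irf7, Psmb8 and Tap1. Ifit1 was at 16.1 and 4.36 CPM in lymphatic endothelial-like cells of mouse 1 and mouse 2, against 83.4 and 58.3 CPM in blood endothelial-like cells (-2.71 ± 0.56, adjusted p = 0.00221, edgeR). Irf7 was at 7.06 and 2.18 CPM in lymphatic endothelial-like cells, against 35.5 and 41.6 CPM in blood endothelial-like cells (-2.90 ± 0.75, adjusted p = 0.0125, edgeR). Psmb8 was at 8.07 and 4.36 CPM, against 24.9 and 30.5 CPM (-2.0 ± 0.63, adjusted p = 0.0467, edgeR), and Tap1 at 9.07 and 12 CPM, against 30.7 and 52.7 CPM (-1.80 ± 0.56, adjusted p = 0.0439, edgeR). In none of the 4 did the classes overlap. The share of all genes without overlap was not computed, and the calls rest on the same values, so this is no separate support. The Psmb8 call was lost without the mouse block and at resolution 0.5, and the Tap1 call without the mouse block and with a mitochondrial limit of 10%. Ifit3 was lower by a log2 fold of -2.50 ± 0.89 without passing the test (adjusted p = 0.0845, edgeR). It passed without shared barcodes (adjusted p = 0.0210, edgeR), with doublets kept, with no filter on low counts and with library size alone.

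Monocyte-like cells set against Ccl17 and Cd209a myeloid cells gave Ifit1 as lower and no member as higher, where 1.46% of all genes tested were called lower and 0.795% higher. This comparison was chosen after the clusters were seen, since macrophage-like cells, with 7 cells in mouse 1, were too few for the one planned. The border between these classes moved with the settings. Among cells of at least 2000 UMIs, 58 and 119 cells were named macrophage-like, and 22 and 21 were left as Ccl17 and Cd209a myeloid cells. Irf7 was at 55.3 and 140 CPM in monocyte-like cells, against 12.1 and 23.3 CPM in Ccl17 and Cd209a myeloid cells, and its log2 fold of 2.33 ± 0.66 did not pass the test (adjusted p = 0.0553, edgeR).

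Other genes of the pathway, taken from lists, were read beside the members. The shares of all genes called higher or lower in each class, given with the members' counts, are the background of these counts too. Of 19 tested type I effector genes, 8 were higher and none lower in blood endothelial-like cells, 13 and none in monocyte-like cells, 11 and 1 in neutrophil-like cells, 9 and none in Ccl17 and Cd209a myeloid cells and 8 and 2 in keratin epithelial-like cells. The median log2 fold over the 19 was 2.42 in neutrophil-like, 2.08 in monocyte-like, 1.60 in blood endothelial-like and 1.36 in Ccl17 and Cd209a myeloid cells. In keratin epithelial-like cells it was 0.62, or 1.29 with genes without UMIs at their limit. Rsad2, which encodes the antiviral enzyme viperin, was at 69.0 and 58.3 CPM in blood endothelial-like cells, against 0.845 and 0.716 CPM in fibroblast-like cells (6.11 ± 0.70, adjusted p = 3.27e-07, edgeR). In keratin epithelial-like cells, where Ifit1 was low, its relative Ifit1bl1 was at 356 and 1288 CPM, against 0.370 and 0.562 CPM in fibroblast-like cells (10.99 ± 0.74, adjusted p = 6.53e-11, edgeR). Oasl1, a member of the oligoadenylate synthetase family, was at 72.8 and 85.0 CPM in Ccl17 and Cd209a myeloid cells, against 0.581 and 0.920 CPM (6.94 ± 0.63, adjusted p = 2.17e-09, edgeR). None of these overlapped with fibroblast-like cells, which follows closely from their calls. Chondrocyte-like cells had 3 higher and 5 lower, with Slfn5 at 1.02 and 0.693 CPM, against 54.2 and 44.7 CPM (-5.72 ± 0.73, adjusted p = 6.5e-07, edgeR).

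Genes that gamma interferon is known to induce, mostly guanosine triphosphatases that attack vacuoles of intracellular microbes, were higher in blood endothelial-like cells in 8 of 12 tested. Iigp1 was at 216 and 383 CPM there, against 8.77 and 9.46 CPM in fibroblast-like cells (4.90 ± 0.58, adjusted p = 1.31e-06, edgeR). Gbp9 was at 56.6 and 44.4 CPM, against 0.264 and 0.102 CPM (7.76 ± 0.82, adjusted p = 7.56e-08, edgeR). Lymphatic endothelial-like cells held Iigp1 at 16.1 and 3.27 CPM and were lower than blood endothelial-like cells (-4.98 ± 0.66, edgeR), in 6 of the 12 genes and in 6 of the 19 type I effector genes. T or NK-like cells had 5 of 12 higher and 1 lower, pericyte or smooth muscle-like cells 4 and none, Schwann-like cells 3 and none, and chondrocyte-like cells none and 5. When clustered at resolution 2, Schwann-like cells had 2 of 15 tested higher, where 13.6% of all genes were called. Their median log2 fold went from 1.41 to 0.10. Blood endothelial-like cells had 12 of 15 higher at that setting. The median log2 fold over the 12 was 2.28 in blood endothelial-like cells, 1.45 in the pericyte or smooth muscle-like class and -0.64 in chondrocyte-like cells.

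Red cell RNA moved with the mice in the blood vessel class. Haemoglobin markers summed to 398 and 25 CPM in blood endothelial-like cells of mouse 1 and mouse 2 and to 128 and 9.66 CPM in fibroblast-like cells; their part in the vessel results was not tested. In naming, the blood endothelial-like class scored 4.43 on its own markers and 2.29 on chondrocyte markers, the next list. What this adds to its members' levels was not tested. When clustered at resolution 2, 117 and 113 cells formed this class, in place of 289 and 116. They held Isg15 at 232 and 172 CPM, Ifit1 at 183 and 63.3 CPM, Irf7 at 73.2 and 45.2 CPM and Psmb8 at 56.1 and 33.1 CPM, and 6 members were higher and 1 lower than in fibroblast-like cells.

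Upstream of the members, the genes for interferon receptors and their signalling proteins were read in the same way. Of the 6 receptor genes tested, 5 were higher in neutrophil-like cells, where 18.1% of all genes were called higher, 4 in monocyte-like cells (13.8%) and 3 in Ccl17 and Cd209a myeloid cells (12.6%), and none was lower there. Ifngr1, a chain of the gamma interferon receptor, was at 781 and 792 CPM in T or NK-like cells, against 136 and 114 CPM in fibroblast-like cells (2.60 ± 0.48, adjusted p = 0.000115, edgeR), and at 31.2 and 28.2 CPM in chondrocyte-like cells (log2 fold -1.96). Ifnlr1, the receptor chain for lambda interferons, was at 20.7 and 33.6 CPM in keratin epithelial-like cells, against 1 and 2 UMIs in all fibroblast-like cells (adjusted p = 6.8e-06, edgeR). Ifnar2 of the type I receptor was at 8.27 and 2.58 CPM in keratin epithelial-like cells, against 40.4 and 38.6 CPM in fibroblast-like cells (-2.62, adjusted p = 0.0332, edgeR). Each of these lay apart from fibroblast-like cells in both mice, on which the calls also rest. Ifnlr1 was not particular to keratin epithelial-like cells. It was also called higher in neutrophil-like cells (8.27 ± 1.16, adjusted p = 9.09e-06, edgeR) and in chondrocyte-like cells (5.06 ± 0.97, adjusted p = 0.000441, edgeR). Among JAK, STAT and IRF genes, 5 of 12 tested were higher and 1 lower in neutrophil-like cells.

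Downstream, of 16 genes of MHC class I presentation, 10 were higher in T or NK-like cells, 9 in monocyte-like cells and 6 each in neutrophil-like and Ccl17 and Cd209a myeloid cells, with none lower, against 2 in blood endothelial-like cells. H2-Q7, a class I heavy chain gene whose reads may be split with its near copies, was at 420 and 295 CPM in T or NK-like cells, against 2.22 and 0.920 CPM in fibroblast-like cells (7.85 ± 0.73, edgeR). Of the constitutive proteasome genes, 2 of 7 were higher in monocyte-like cells and 2 in skeletal muscle-like cells. Of 10 immediate early genes, which respond to handling of cells among other stimuli, 6 were higher in mast-like cells, 4 were lower and 1 higher in monocyte-like cells, and 4 were lower in T or NK-like cells; their part in the members' levels was not tested.

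The interferons themselves were almost unseen. Ifnb1 gave 15 and 11 UMIs in the cells of mouse 1 and mouse 2. All 15 lay in 2 of 130 Ccl17 and Cd209a myeloid cells of mouse 1, and 10 of the 11 in 5 of 116 such cells of mouse 2. Ifng gave 18 and 2 UMIs, of which 17 came from 1 T or NK-like cell of mouse 1. Ifnk gave 7 UMIs in each mouse and Ifna2 gave 1 in mouse 1. Counts of 0, as found for Ifne, Ifnl2, Ifnl3, Ifna1, Ifna4 and Ifna5, allow up to 0.0454 and 0.0476 CPM over all cells.

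Single cells that carried several type I members at once were rare. At least 3 of Isg15, Ifit1, Ifit3 and Irf7 were detected in 79 of 12537 cells of mouse 1, or 0.630% (95% exact interval 0.499 to 0.785), and in 47 of 8930 cells of mouse 2, or 0.526% (0.387 to 0.699). Without shared barcodes the shares were 0.637% and 0.495%. When every cell was thinned to 1000 UMIs only 3 and 5 such cells were found, so that the counts rest on the deeper cells. Median depth was 8595 and 7202 UMIs in these cells, against 3851 and 5233 UMIs in the rest. The share was 3.46% (1.67 to 6.27) and 4.31% (1.41 to 9.77) in blood endothelial-like cells, against 0.256% and 0.422% in fibroblast-like cells. Chondrocyte-like cells, which had no class-wide Isg15 difference, held 45 and 13 of these cells. Those few carried 28.3% and 16.8% of the class's Isg15 UMIs and 40.8% and 67.5% of its Ifit1 UMIs. These shares are partly set by the choice, since the cells were picked by UMIs of these same genes. They were also deeper than the rest of the class (medians of 10480 and 14651 UMIs, against 6740 and 10801 UMIs).

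Other type I effector genes, which played no part in choosing these cells, were higher in them too. The 24 effectors left out Ifit3b and Ifit1bl1 but kept Ifit2, which is of the same family as Ifit1 and Ifit3. They summed to 1587 and 2059 CPM in the chosen cells of mouse 1 and mouse 2, against 489 and 374 CPM in the rest. Ifit2 itself was at 53.6 and 19.5 CPM, against 7.44 and 5.97 CPM. Of the 24, 22 were higher in both mice, and Isg20 and Ifi204 in 1 mouse. Some of the 22 rested on few UMIs in the chosen cells, such as 1 of Mx1 in mouse 1 and 2 of Ifi44 in mouse 2. Trim30a differed little, with ratios of 1.05 and 1.33. The share of all genes that were higher in the chosen cells was not computed. Psmb8, Psmb9 and Tap1 together were at 111 and 151 CPM in the chosen cells, against 26.0 and 21.0 CPM in the rest. With all cell groups pooled, the median ratio over the 24 was 5.54 in mouse 1 and 11.2 in mouse 2. Within chondrocyte-like cells the sums were 1077 and 1059 CPM, against 419 and 335 CPM, and within fibroblast-like cells 1326 and 1838 CPM, against 567 and 418 CPM. The immediate early genes were also higher in the chosen cells, at 12782 and 9660 CPM, against 8967 and 7886 CPM in the rest. They were higher within chondrocyte-like cells (15493 and 15551 CPM, against 10001 and 10024 CPM). Within fibroblast-like cells they were lower (6027 and 3954 CPM, against 7058 and 5140 CPM). Since the cells of 1 mouse are not replicates, no test was made.

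**Figure D3:**
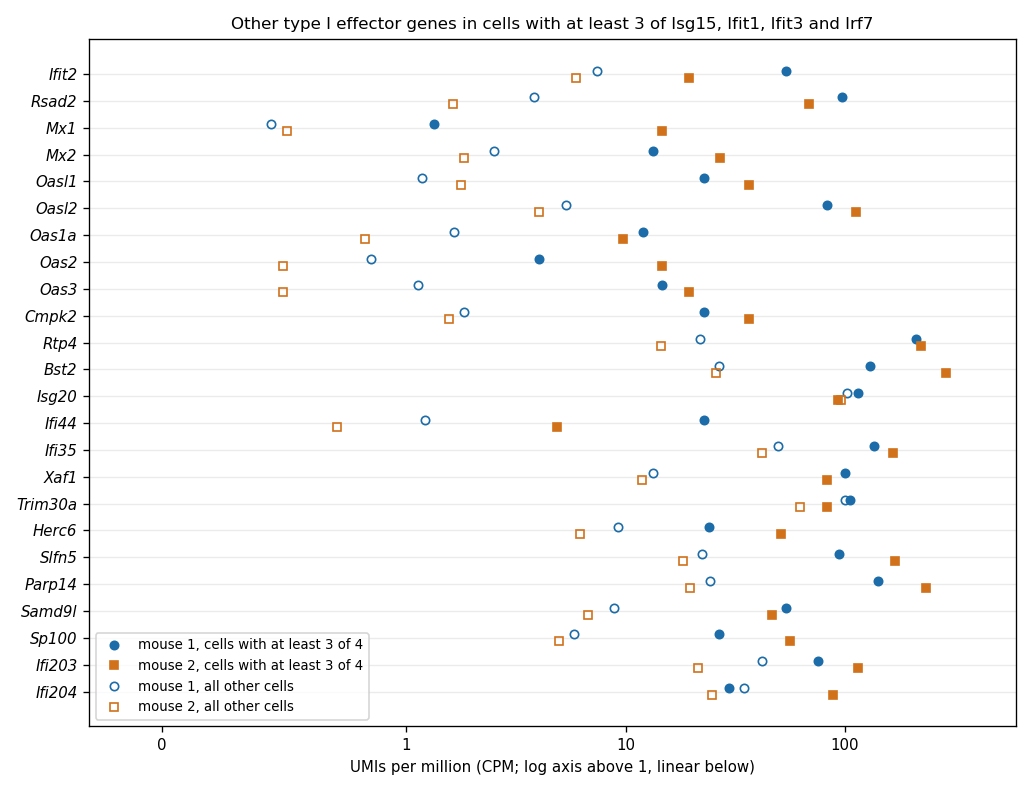
Level of 24 other type I effector genes in CPM (horizontal axis, logarithmic above 1 and linear below) in cells with at least 3 of Isg15, Ifit1, Ifit3 and Irf7 (filled) and in all other cells (open); circles are mouse 1 and squares are mouse 2. Filled symbols lie to the right of open ones of the same mouse for 22 of the 24 genes in both mice. Some filled symbols rest on few UMIs (1 for Mx1 in mouse 1), and the share over all genes was not computed.

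The presentation genes were also counted together in single cells. The shares that each gene's own detection would give were not computed, so these values do not show joint expression beyond that. At least 2 of Psmb8, Psmb9 and Tap1 were detected in 35.4% and 24% of monocyte-like cells, in 17.1% and 16.7% of keratin epithelial-like cells and in 14.6% and 9.48% of Ccl17 and Cd209a myeloid cells, against 0.311% and 0.488% of fibroblast-like cells. Neutrophil-like cells differed between the mice, at 4.55% of 154 cells and 35% of 20 cells. Chondrocyte-like cells, at 0.701% and 0.425%, lay near fibroblast-like cells although they were deeper (medians of 6763 and 10817 UMIs, against 2697 and 3604 UMIs). Median depths were 5648 and 8409 UMIs in monocyte-like, 4670 and 6472 UMIs in keratin epithelial-like and 2886 and 4140 UMIs in Ccl17 and Cd209a myeloid cells. Thinning to 1000 UMIs left 7 such cells in each mouse, in place of 136 and 84. Monocyte-like and Ccl17 and Cd209a myeloid cells each kept 1 in mouse 1 and 0 in mouse 2. Keratin epithelial-like and neutrophil-like cells kept 0 in both mice, so the classes could not be compared at equal depth.

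Across 48 sums of 24 clusters and 2 mice, the genes whose log2 levels followed each member most closely were looked up by Pearson's r, leaving 12154 genes after a limit on low levels. Isg15 followed Trim25 (r = 0.89), whose protein attaches ISG15 to targets, Arpc3 (0.81) and Cd274 (0.81). Psmb8 followed its overlapping feature Gm20496 (0.97), Psme1 (0.87), which encodes a proteasome activator chain, and B4galnt1 (0.84). Irf7 followed Prdm1 (0.85), Cd274 (0.82) and Psmb8 (0.81), and Ifit1 followed Vwf (0.69), an endothelial gene, Iigp1 (0.68) and Sema7a (0.67). Ifi27l2a followed Dtnbp1 (0.89), Xdh (0.87) and Marcks (0.85). Ifitm3 followed its overlapping feature (0.99), Marcks (0.88) and Acap2 (0.86). Among the 45 pairs of members, Isg15 with Irf7 was at 0.77 and Ifit3 with Psmb9 at -0.28. The sums share 2 libraries, and these values are a description.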

How the data were processed

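Per the labels' protocols, digestion was at 37 °C and cells were sieved (40 µm) before erythrocytes were lysed. The deposited values are UMI counts per gene and barcode, unnormalized; STAR, Cell Ranger 7.0.0 and GRCm39 come from the submitters' processing notes. Kept cells had at least 1000 UMIs, at least 300 genes and at most 15% mitochondrial UMIs. Scrublet called 0 doublets, so the top-scoring 0.8% per 1000 cells were removed (1599 and 750). Cells were clustered with scanpy 1.11.5 (Leiden, leidenalg 0.10.2, resolution 1) on 28395 genes, with the members and all listed genes among the 28558 left out, and named from 21 lists of 5 markers. Counts were summed per mouse and class (at least 20 cells in both mice) and tested with edgeR 4.0.16 (quasi-likelihood, TMM) under R 4.3.3, with 26 sums and the mouse as a block, since same-numbered sums come from the same animal; DESeq2 1.42.0 was an alternative. Members and lists were chosen with earlier results of these data known. Every member was named, with at most 4 genes per list and comparison (largest fold at an adjusted p under 0.05) and at most 3 per member by likeness of log2(CPM + 10). The script was tested on simulated data. Intervals and floors (3 UMIs) cover counting error only.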

Additional observations from a re-analysis of the deposited data

How the results depend on the processing

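Of the 51 called results, 35 kept their call and direction in every setting in which they could be tested, 16 lost it in at least 1, and none reversed. The most, 13, were lost when the mouse was not a block. Called members with no replicate block, which leaves the pairing of sums by mouse unused, numbered 4 in blood endothelial-like, 3 in chondrocyte-like, 1 in mast-like, 0 in Schwann-like and 0 in skeletal muscle-like cells, and 2 for lymphatic against blood endothelial-like cells. With no filter on low counts they were 3 in chondrocyte-like, 2 in lymphatic endothelial-like and 3 in Schwann-like cells, and 2 for monocyte-like against Ccl17 and Cd209a myeloid cells. Among cells of at least 2000 UMIs they were 8 in keratin epithelial-like, 2 in Schwann-like and 1 in skeletal muscle-like cells. Lymphatic endothelial-like cells had 2 with a mitochondrial limit of 10%, doublets kept, resolution 2, library size alone or no shared barcodes. Schwann-like cells had 2 with library size alone and 3 without shared barcodes, and monocyte-like against Ccl17 and Cd209a myeloid cells gave 3 with doublets kept and 2 with library size alone. The causes were not tested. Mast-like and neutrophil-like cells were too few to compare at 2000 UMIs, and neutrophil-like cells too few without shared barcodes. Left with 1 mouse, there was no test. All 51 results kept their direction, which follows closely from both mice lying on the same side. The group with the highest level stayed for 6 to 8 of 10 members. Unthinned co-detection averaged 0.578% over the mice. In classes of about 20 cells per mouse, a gene of a few CPM could not be measured.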

Other observations

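Groups too small in a mouse for a comparison are given as values. Macrophage-like cells numbered 7 in mouse 1 and 48 in mouse 2, and held Ifi27l2a at 977 and 860 CPM and Isg15 at 0 and 147 CPM. B-like cells, 14 and 38, held Ifi27l2a at 527 and 587 CPM and Irf7 at 154 and 25.5 CPM. A group led by Cntn1 and Unc5d, 138 and 12 cells, had Irf1 at 384 and 978 CPM and Tap1 at 40.5 and 122 CPM, both above fibroblast-like cells in each mouse. Of the 3 and 2 cells led by Siglech and Ccr9, which are known from plasmacytoid dendritic cells, 1 cell in mouse 2 held 7 Irf7 UMIs, which made 450 CPM over that group, and mouse 1 had none.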
